A study of Homo sapiens with 12 samples.

Results

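Responses of the same cells to a pair of treatments were set against each other gene by gene, the response to depletion of FLI1 and the response to low-dose actinomycin D. The cells were A673, an Ewing sarcoma cell line that carries the EWS-FLI1 fusion. Of the 12 Affymetrix Gene ST arrays of the series, 8 entered the comparison, with 2 arrays in each of 4 groups. One pair of groups was infected with lentivirus carrying FLI1 shRNA or lacZ shRNA, the latter aimed at a bacterial gene, and both are labelled as taken at 48 h. The methods add Polybrene during infection and selection of infected cells with puromycin, and describe 24 h with virus before 48 h of selection. The other pair received 5nM actinomycin D or its vehicle DMSO for 24 h, without virus. Untreated cells and cells given 50nM actinomycin D, the remaining 4 arrays, served here to estimate the spread between arrays.

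Each of 18404 genes was represented by 1 probe set, that with the highest mean signal over the 12 arrays among probe sets with a single gene symbol. The FLI1 shRNA response of a gene is its mean log2 signal with FLI1 shRNA minus that with lacZ shRNA, and its drug response is the mean with 5nM actinomycin D minus that with DMSO. The difference of responses is the first minus the second, so a value above 0 means that the gene moved higher, or fell less, after FLI1 shRNA than with the drug. The pairs have no array in common. Harvest time, virus, selection and vehicle differ between the pairs and cannot be told apart from the agents in any value given here. The methods give a single hairpin for FLI1 and a single one for lacZ. Effects of the FLI1 hairpin on other transcripts therefore cannot be told apart from depletion of FLI1. The methods describe drug and DMSO treatment in duplicate, but for the shRNA groups the sources do not say whether the 2 arrays came from separate infections, so the p-values there rest on a between-array spread that may be purely technical. In RNA of a bulk culture, a change in the share of cells in some state and a change within each cell cannot be told apart.

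A gene is said to have risen or fallen where its adjusted p was under 0.05 in limma, with Benjamini-Hochberg adjustment over all 18404 genes, and every error is a standard error. Counts of large changes use the thresholds of the study's methods, over 2-fold with an adjusted p under 0.01. The signals of the 12 arrays had been brought to one distribution by RMA, so only relative levels remained. Array medians lay between 6.67 and 6.83, and correlations within groups between 0.995 and 0.998. The median standard error was 0.10 for a response and 0.14 for a difference of responses, and the median 95% interval of a difference reached 0.31 to either side. Between the controls themselves, 147 genes were higher and 331 lower with lacZ shRNA than with DMSO, 11 of them past the thresholds for large changes. Of the 140 genes named by rule 15 differed between these controls. DPYSL5, ITGA6, PCDH18, HMMR and CREBBP were lower with lacZ shRNA (log2 differences −0.80 to −0.30), and CD68, IFITM1, ANKRD1, NFKB1, SOD2, GDF15, SNORD79, PTGS2, IL1A and PTX3 were higher (0.35 to 1.07), so that for these genes equal responses are not equal levels. Ewing sarcoma markers were present, with mean log2 levels of 9.67 to 9.85 on the arrays of the DMSO, 5nM and lacZ shRNA groups and 9.03 to 9.04 with FLI1 shRNA. They include FLI1, the target of the shRNA, so part of that lower mean was set by the treatment. Epithelial, blood and endothelial markers had means of 5.19 to 6.09 over all 8 arrays, below the array medians, and the pan-leukocyte gene PTPRC lay between 3.62 and 3.82.

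EWS-FLI1 joins part of the RNA-binding protein EWSR1 to the DNA-binding part of the ETS transcription factor FLI1. The fusion protein activates genes near repeats of the sequence GGAA, among them genes of proliferation and of neural development, and keeps a mesenchymal programme of matrix, adhesion and growth-factor genes low. Depletion of FLI1 by shRNA lowers the fusion transcript without acting on the transcription machinery itself. Actinomycin D intercalates into DNA and stalls RNA polymerases, and at low doses it is best known for blocking RNA polymerase I, which makes ribosomal RNA. The comparison asks which genes and functions the drug moved as FLI1 depletion did, which it moved the other way, and which only one of the treatments moved.

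FLI1 itself had log2 signals of 7.30 and 7.08 with FLI1 shRNA, 8.63 and 8.45 with lacZ shRNA, 8.50 and 8.55 with 5nM actinomycin D, and 8.59 and 8.61 with DMSO. The FLI1 shRNA arrays lay below the other 6, which lay close together. The difference of responses was −1.27 (standard error 0.13, 95% interval −1.56 to −0.97, adjusted p = 2.3e-05). EWSR1 fell alike in both treatments, with responses of −0.29 to FLI1 shRNA and −0.30 to the drug and a difference of 0.01 (95% interval −0.22 to 0.24, adjusted p = 0.93). These signals cannot be divided between the fusion transcript and the unfused ones. NR0B1 and RPS26 have no single-symbol probe set and are not analysed here.

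After FLI1 shRNA 2691 genes rose (14.6% of those tested) and 1707 fell (9.28%), whereas with the drug 5581 rose (30.3%) and 4234 fell (23.0%). The spread of responses over genes was 0.33 (SD) for FLI1 shRNA and 0.63 for the drug, and across genes the responses were nearly uncorrelated (Pearson's r = 0.0078, Spearman's rho = −0.0365, a description over genes that are not independent). In the difference of responses 4203 genes were higher (22.8%) and 4366 lower (23.7%). Under the thresholds for large changes, 1795 were higher (9.75%) and 624 lower (3.39%), so that 74.2% of these large differences were in the direction of a lower value with the drug. When the mean signal of the ribosomal protein genes was set equal on all arrays, an alternative called ribosomal protein centring below, the counts were 2955 and 243, or 92.4% higher. Over all genes it turned the drug counts to 1660 rising and 8304 falling and the difference to 7169 higher and 1291 lower. The centring lowered each drug response by 0.36, raised each difference by 0.37 and moved each FLI1 shRNA response by 0.01. The median over all genes went from 0.12 to −0.24 for the drug and from −0.13 to 0.24 for the difference, and therefore medians of lists are set against that of all genes as well. Statements that a gene moved alike or equally in both treatments, as for EWSR1 above, are made without the centring.

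In all 3096 genes passed in both treatments, and they divided into 4 classes of unequal make-up. Of these, 684 fell in both, 969 rose in both, 948 rose after FLI1 shRNA and fell with the drug, and 495 fell after FLI1 shRNA and rose with the drug. The same direction was thus found for 53.4% and opposite directions for 1443 genes. The 684 were 40.1% of the genes that fell after FLI1 shRNA and 16.2% of those that fell with the drug, and the 969 were 36.0% and 17.4% of the genes that rose. The opposite classes made up 35.2% of the rises and 29.0% of the falls after FLI1 shRNA, and 22.4% of the falls and 8.87% of the rises with the drug. A total of 316 genes that fell in both and 587 that rose in both moved by a similar amount, meaning that the 95% interval of their difference lay within a factor of 1.5 either way. These were counted without ribosomal protein centring, which raises each difference by 0.37. These class counts depend on single arrays of the shRNA pair. The genes that fell in both numbered 439 without FLI1 shRNA replicate 1 and 444 without lacZ shRNA replicate 1, and those that rose in both 587, 598 and 592 without FLI1 shRNA replicate 1, FLI1 shRNA replicate 2 and lacZ shRNA replicate 2. Without the same 3 arrays the genes that rose after FLI1 shRNA and fell with the drug numbered 539, 566 and 515. The reverse class held 266 and 320 genes without either FLI1 shRNA array, and 328 and 325 without either lacZ shRNA array. Centring on the ribosomal protein genes gave 1038, 462, 1632 and 194 genes for the classes in the order first given.

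The overlap was examined next from the side of the large changes. Of the 222 genes (1.21%) higher by more than 2-fold after FLI1 shRNA, 91 rose with the drug, 56 fell and 75 did not pass, that is 41.0% and 25.2% beside 30.3% and 23.0% of all genes. Of the 110 genes (0.598%) lower by more than 2-fold after FLI1 shRNA, 58 fell with the drug, 29 rose and 23 did not pass, that is 52.7% and 26.4% beside the same backgrounds of 23.0% and 30.3%. Seen from the drug side, both shared and opposite changes exceeded their shares over all genes. Of 486 genes (2.64%) higher by more than 2-fold with the drug, 134 rose and 65 fell after FLI1 shRNA (27.6% and 13.4%, beside 14.6% and 9.28% of all genes). Of 1447 genes (7.86%) lower by more than 2-fold, 254 fell and 337 rose (17.6% and 23.3%, beside 9.28% and 14.6%). The shares over all genes include dim genes. The median of the mean log2 signal was 8.60 to 9.22 in the 4 classes, against 7.45 over all genes. What part signal level has in these shares was not tested. Among genes that passed 2-fold at an adjusted p under 0.01 in both treatments, 26 were lower in both, 30 higher in both, 24 higher after FLI1 shRNA and lower with the drug, and 8 the other way round.

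Genes that fell in both treatments, ranked by the smaller of their responses, were led by DPYSL5, a cytoplasmic protein of axon growth. Its log2 signals were 7.97 and 7.95 with FLI1 shRNA, 9.45 and 9.38 with lacZ shRNA, 8.32 and 8.27 with 5nM actinomycin D, and 10.19 and 10.25 with DMSO. Every treated array lay below its controls by more than 1 log2 unit, although the controls themselves differed, with lacZ shRNA lower than DMSO (adjusted p = 0.0011). The responses were −1.45 and −1.92, and the fall was larger with the drug (difference 0.47, standard error 0.11, adjusted p = 0.0057). KMO, an enzyme of tryptophan breakdown, had signals of 6.61 and 6.58 with FLI1 shRNA against 8.12 and 8.08, and of 6.66 and 6.42 with the drug against 7.91 and 7.91. Its levels after both treatments met, and the difference was −0.13 (95% interval −0.40 to 0.13, adjusted p = 0.39). XRCC2, which acts in homologous recombination, had signals of 8.66 and 8.74 against 9.96 and 9.92, and of 8.53 and 8.53 against 10.04 and 9.85. Here too the difference of 0.18 did not pass (95% interval −0.06 to 0.42, adjusted p = 0.21). Ribosomal protein centring raises each difference by 0.37, so how alike these falls are depends on the scaling.

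The other leading genes of this class had varied roles. The cadherin CDH12 had responses of −1.33 to FLI1 shRNA and −1.58 to the drug, and the neurturin receptor GFRA2 of −1.75 and −1.29. EWSAT1, a long noncoding RNA named for Ewing sarcoma, had −1.63 and −1.22, PRR5L, which binds the kinase complex mTORC2, −1.46 and −1.24, and RUBCNL, which acts in autophagy, −1.51 and −1.22. GFRA2 fell further after FLI1 shRNA (difference −0.46, adjusted p = 0.02), but this call was lost with ribosomal protein centring and without each of DMSO replicate 1, FLI1 shRNA replicate 2 and lacZ shRNA replicate 2 (−0.09, −0.42, −0.31 and −0.45 in that order). The differences of the other 4 did not pass. The response values of the 32 genes named for the 4 classes kept their direction and passed under each of the 16 alternatives that gave them a value.

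The class that rose in both treatments was led by secreted and mesenchymal genes. DKK1, a secreted Wnt antagonist, had log2 signals of 10.68 and 10.55 with FLI1 shRNA against 5.99 and 6.04, and of 8.27 and 7.72 with the drug against 5.81 and 5.81. Both controls lay below the array medians and both treatments above them, FLI1 shRNA more so, with a difference of 2.42 (standard error 0.20, adjusted p = 3.6e-06). SNAI2, the transcription factor Slug of mesenchymal transitions, had signals of 11 and 10.82 against 9.27 and 9.0, and of 11.41 and 11.64 against 8.97 and 9.02. Here the drug gave the larger rise, 2.53 against 1.78, with a difference of −0.75 (standard error 0.17, adjusted p = 0.0036) that did not pass with ribosomal protein centring (−0.38, adjusted p = 0.11). S100A10, the partner of annexin A2 at the cell membrane, rose by 1.37 and 1.43 to nearly equal levels of 11.58 and 11.53 with FLI1 shRNA and 11.52 and 11.47 with the drug. Its difference was −0.06 (95% interval −0.38 to 0.26, adjusted p = 0.76).

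PCDH18, a protocadherin, also rose about equally, by 1.66 after FLI1 shRNA and 1.56 with the drug (95% interval of the difference −0.21 to 0.41). ENC1, an actin-binding protein (1.55 and 2.21), CCN1, a matrix protein of cell adhesion (1.52 and 1.99), and the cytokine IL1A (1.43 and 2.05) rose further with the drug, with differences of −0.66, −0.47 and −0.62 (adjusted p = 0.0014, 0.0035 and 0.0036). For IL1A the lacZ shRNA arrays (8.93 and 8.85) already lay above DMSO (7.91 and 7.76), and its level with FLI1 shRNA (10.32 and 10.33) was above that with the drug (9.82 and 9.96). These calls were lost with ribosomal protein centring (differences −0.29, −0.10 and −0.25). CCDC80, a secreted matrix protein, rose further after FLI1 shRNA (2.03 and 1.44, difference 0.59, adjusted p = 0.013). Its call was lost without DMSO replicate 2 (0.51) or lacZ shRNA replicate 2 (0.50).

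Genes that rose after FLI1 shRNA and fell with the drug were, at the top of the ranking, genes of signalling adaptors, axon guidance and cell adhesion with long gene spans. DOK5, a docking protein of receptor tyrosine kinases, had log2 signals of 9.53 and 9.52 with FLI1 shRNA against 7.97 and 7.82, and of 5.98 and 5.57 with the drug against 8.14 and 7.59. From similar controls the treatments thus ended far apart, with a difference of 3.71 (standard error 0.25, adjusted p = 8.6e-07). SEMA3A, a secreted axon repellent, had signals of 10.39 and 10.32 against 9.04 and 8.80, and of 6.96 and 7.00 against 9.24 and 9.18. The FLI1 shRNA arrays were the highest and the drug arrays the lowest of the 8, and the difference was 3.67 (standard error 0.14, adjusted p = 6.9e-08). RBMS3, an RNA-binding protein, had signals of 9.35 and 9.26 against 7.55 and 7.48, and of 6.02 and 5.87 against 7.47 and 7.50, a difference of 3.33 (standard error 0.12, adjusted p = 5.9e-08). SRGAP1, a GTPase-activating protein of Slit and Robo signalling (1.37 and −2.11), ARHGAP42, which acts on RhoA (1.39 and −1.55), the engulfment adaptor GULP1 (1.42 and −1.60), the cadherin CDH10 (1.41 and −1.37) and TMEM133 (1.55 and −2.39), a symbol with no entry in the RefSeq table used here, completed the 8. Each of the 7 with an entry spans 158 kb or more.

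Genes that fell after FLI1 shRNA and rose with the drug were short, and 36 of the 495 were small nucleolar RNAs, against 175 of all 18404 genes. SNORD75, a box C/D RNA that lies in an intron of GAS5, had log2 signals of 8.20 and 8.42 with FLI1 shRNA against 9.42 and 9.33, and of 11.02 and 10.85 with the drug against 9.03 and 8.46. Both drug arrays were above, and both FLI1 shRNA arrays below, all 4 control arrays, and the difference was −3.26 (standard error 0.26, adjusted p = 3.1e-06). UNG, which removes uracil from DNA, had signals of 8.08 and 8.20 against 9.34 and 9.32, and of 10.52 and 10.47 against 9.30 and 9.49, a difference of −2.28 (standard error 0.12, adjusted p = 1.7e-07). CCNE1, the S-phase cyclin E1, had signals of 6.64 and 6.43 against 7.73 and 7.65, and of 9.19 and 8.93 against 8.04 and 7.90, a difference of −2.24 (standard error 0.14, adjusted p = 7.1e-07). In both genes the 4 control arrays lay together and the treatments moved by more than 1 log2 unit to either side. The homeobox factor IRX3 (−1.08 and 1.01) was the other protein-coding gene among the 8, and SNORD79 (−1.13 and 1.73), SNORD28 (−1.22 and 1.10), SNORD78 (−1.03 and 1.34) and SNORD44 (−1.01 and 1.40) were the rest.

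Among genes with a response under 0.3 log2 units in one of the treatments, the 6 largest differences in either direction were set by the drug. Among genes lower in the difference, NR4A2, a nuclear receptor of the early response, had log2 signals of 7.00 and 6.99 with FLI1 shRNA, 6.92 and 6.73 with lacZ shRNA, 10.29 and 10.55 with 5nM actinomycin D, and 6.88 and 6.94 with DMSO. The drug arrays alone stood apart, and the difference was −3.34 (standard error 0.17, adjusted p = 1.7e-07). The small GTPase RASL11B (difference −3.18), NRARP, a feedback inhibitor of Notch (−3.0), RSRP1, an arginine- and serine-rich protein (−2.96), the poly(A) polymerase TENT5C (−2.90) and SNAI1, the factor Snail (−2.68), followed. While SNAI2 rose in both treatments, its relative SNAI1 rose by 2.76 with the drug and had a response of 0.08 to FLI1 shRNA (adjusted p = 0.64).

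Among genes higher in the difference, B3GALT1, a galactosyltransferase, had log2 signals of 8.13 and 8.14 with FLI1 shRNA, 8.47 and 8.21 with lacZ shRNA, 4.34 and 4.37 with the drug, and 8.18 and 8.35 with DMSO. The drug arrays fell to near the bottom of the scale, and the difference was 3.71 (standard error 0.14, adjusted p = 6.9e-08). The serotonin receptor HTR1F (difference 3.36), the synaptic vesicle protein SYT1 (3.28), SIPA1L1, which acts on Rap GTPases (3.23), the teneurin TENM2 (3.22) and the transcription factor NFIA (3.21) showed the same pattern. Changes set by FLI1 shRNA were smaller in number. IGFBP5, which binds insulin-like growth factors, had signals of 10.61 and 10.47 with FLI1 shRNA against 7.92 and 7.71, and of 8.00 and 8.08 with the drug against 8.06 and 8.06, and ANKRD1, a nuclear cofactor, had responses of 2.39 and −0.05. SCNN1G, a sodium channel subunit named after its values were seen, had responses of −2.56 and −0.18 (difference −2.39, standard error 0.11, adjusted p = 1.3e-07).

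Functions were compared through lists of genes drawn up from general knowledge, with earlier results of these data known, and each is given by its counts. They are to be read against the shares over all genes, which were 14.6% rising and 9.28% falling after FLI1 shRNA, 30.3% and 23.0% with the drug, 5.27% rising in both, 3.72% falling in both, 5.15% rising after FLI1 shRNA and falling with the drug, and 2.69% the reverse. With ribosomal protein centring the drug shares were 9.02% and 45.1%. List members introduced by "such as" were chosen after their values were seen. Of 36 measured genes that the literature describes as activated by EWS-FLI1, 29 fell and 1 rose after FLI1 shRNA. With the drug 20 fell and 4 rose (32 and 2 with ribosomal protein centring). Both medians were below that of all genes, at −0.71 and −0.40, or −0.70 and −0.52 relative to it. The median difference was −0.21, or 0.16 with ribosomal protein centring, and −0.09 relative to all genes. In 18 genes the falls were shared, such as those of the growth factor IGF1 (−1.12 and −1.06), the receptor KIT (−1.39 and −0.88) and the histone methyltransferase EZH2 (−0.58 and −1.20). In 4 genes the directions were opposite, namely in the neuropeptide Y receptor NPY1R, the peptide hormone CCK, ID2, an inhibitor of differentiation factors, and the growth regulator MYC (the last 2 named after their values were seen). NPY1R had log2 signals of 9.69 and 9.75 with FLI1 shRNA against 11.50 and 11.49, and of 11.83 and 11.77 with the drug against 11.35 and 11.18. It was thus high on 6 of 8 arrays and lowered only with FLI1 shRNA (difference −2.31, standard error 0.10, adjusted p = 1.2e-07). CCK differed by −1.45, the homeobox factor NKX2-2 by −1.38 with a drug response of 0.03 (adjusted p = 0.85), and the phosphatase PTPN13 by 2.43 with a drug response of −2.58.

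In the list of 44 genes that EWS-FLI1 is known to repress, 36 rose and 1 fell after FLI1 shRNA, and 27 rose and 7 fell with the drug (14 and 12 with ribosomal protein centring). The medians were 0.63 and 0.31, the latter −0.05 with ribosomal protein centring, and 0.64 and 0.19 relative to all genes. In 24 the rise was shared, such as in LOX, which crosslinks collagen (2.37 and 1.37), the urokinase PLAU (2.17 and 0.99) and CCN2, a matrix protein of the same family as CCN1 (1.28 and 2.00). The 21 growth factor and signalling genes of the list had medians of 0.84 after FLI1 shRNA and 0.93 with the drug, and 13 of them rose in both. The 23 matrix and adhesion genes had medians of 0.63 and 0.26, and 11 rose in both. The transcription factor ZEB2 (responses 0.11 and −2.12, difference 2.23) and the cadherin CDH11 (−0.63 and −2.50, difference 1.87) fell far with the drug instead.

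Genes of DNA replication and of the E2F programme, which prepares cells for S phase, fell as a group after FLI1 shRNA and divided with the drug. Of 77 measured, 67 fell after FLI1 shRNA and 10 did not pass. With the drug 39 fell, 20 rose and 18 did not pass, or 54 and 11 with ribosomal protein centring. In 33 genes both treatments lowered the level, in 19 the directions were opposite, and the list medians were −0.70 and −0.21, or −0.69 and −0.33 relative to all genes. The genes of DNA polymerases and the replication fork fell together, 21 of 25 after FLI1 shRNA and 18 of 25 with the drug, with medians of −0.61 and −0.44. The 14 regulators of the programme differed, since 13 fell after FLI1 shRNA (median −0.87) but 6 rose and 3 fell with the drug (median 0.22, which ribosomal protein centring turns negative). Of the 22 genes of origin licensing and the helicase, 18 fell after FLI1 shRNA, and with the drug 12 fell and 6 rose.

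Among members that fell in both, the primase subunit PRIM1 had log2 signals of 9.20 and 9.33 with FLI1 shRNA against 10.26 and 10.02, and of 8.06 and 7.82 with the drug against 10.51 and 10.43 (PRIM1, PCNA and E2F1 were named after their values were seen). The drug arrays were lowest, and the difference was 1.66 (standard error 0.15, adjusted p = 8.5e-06). Among members that moved oppositely, PCNA, the sliding clamp of DNA polymerases, had signals of 9.55 and 9.61 against 10.68 and 10.62, and of 11.57 and 11.58 against 10.89 and 10.82. Its difference was −1.80 (standard error 0.10, adjusted p = 2.2e-07). The transcription factor E2F1 had signals of 8.25 and 8.30 against 9.44 and 9.57, and of 10.26 and 10.24 against 9.51 and 9.45, a difference of −2.0 (standard error 0.10, adjusted p = 1.5e-07). E2F8, a repressor of the same family that the naming rule picks, had responses of −1.0 and 1.10 (difference −2.10), and ORC5, an origin recognition subunit, of 0.02 and −2.02 (difference 2.04).

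The 33 replication genes that fell in both were longer than the 19 that moved oppositely. Gene span, the distance from first to last base in the RefSeq annotation, had a median of 49.4 kb in the former (12.8 to 303 kb), with 22 over 40 kb and 4 under 20 kb. In the latter it was 13.4 kb (4.33 to 82.1 kb), with 3 over 40 kb and 13 under 20 kb. Across the 77 genes, Spearman's rho with span was 0.25 for the FLI1 shRNA response, −0.66 for the drug response and 0.63 for the difference, a description over genes.

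Promoters were examined for the same genes because members that move together may share sequence. The promoters of the 3 replication genes with the largest smaller response in each class, among those with an entry in the RefSeq promoter table of GRCh38.p14, are shown from 250 bases before to 50 bases after the start, 5′ to 3′ on the strand of the gene. Capitals mark matches to the E2F motif, searched as TTTGGCGC, TTTCGCGC or TTTCCCGC on both strands. MCM3, XRCC2 and BRIP1 fell in both treatments, and UNG, CCNE1 and ORC6 fell after FLI1 shRNA and rose with the drug.
MCM3, chr6:52284693-52284992, minus strand: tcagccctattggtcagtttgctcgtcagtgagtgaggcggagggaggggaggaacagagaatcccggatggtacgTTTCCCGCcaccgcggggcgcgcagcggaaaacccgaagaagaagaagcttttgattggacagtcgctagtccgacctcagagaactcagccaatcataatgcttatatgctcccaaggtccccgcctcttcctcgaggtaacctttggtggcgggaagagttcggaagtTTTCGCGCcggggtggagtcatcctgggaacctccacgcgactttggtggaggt
XRCC2, chr7:152676092-152676391, minus strand: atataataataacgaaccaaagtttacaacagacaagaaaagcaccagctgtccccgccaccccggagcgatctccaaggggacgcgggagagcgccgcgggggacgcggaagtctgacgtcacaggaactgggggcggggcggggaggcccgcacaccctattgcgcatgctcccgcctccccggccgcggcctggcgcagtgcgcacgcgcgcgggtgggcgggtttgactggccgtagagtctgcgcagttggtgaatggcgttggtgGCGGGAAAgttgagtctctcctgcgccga
BRIP1, chr17:61863479-61863778, minus strand: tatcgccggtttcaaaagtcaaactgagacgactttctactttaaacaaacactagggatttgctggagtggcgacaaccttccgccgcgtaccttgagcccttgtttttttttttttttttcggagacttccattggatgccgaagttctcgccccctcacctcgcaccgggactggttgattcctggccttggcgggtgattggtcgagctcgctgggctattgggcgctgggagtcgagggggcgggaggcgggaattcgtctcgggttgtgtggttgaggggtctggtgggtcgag
UNG, chr12:109097347-109097646, plus strand: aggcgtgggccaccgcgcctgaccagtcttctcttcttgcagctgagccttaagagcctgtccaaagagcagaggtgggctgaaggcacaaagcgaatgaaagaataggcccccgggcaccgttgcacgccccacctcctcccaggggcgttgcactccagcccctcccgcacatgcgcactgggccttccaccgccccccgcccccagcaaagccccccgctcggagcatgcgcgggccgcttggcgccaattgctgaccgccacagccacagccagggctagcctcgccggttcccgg
CCNE1, chr19:29811741-29812040, plus strand: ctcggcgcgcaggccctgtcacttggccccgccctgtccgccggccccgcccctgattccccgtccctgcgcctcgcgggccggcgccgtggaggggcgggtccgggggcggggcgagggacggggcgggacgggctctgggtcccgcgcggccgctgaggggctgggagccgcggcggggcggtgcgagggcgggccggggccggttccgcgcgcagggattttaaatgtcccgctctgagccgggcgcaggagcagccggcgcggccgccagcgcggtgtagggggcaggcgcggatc
ORC6, chr16:46689409-46689708, plus strand: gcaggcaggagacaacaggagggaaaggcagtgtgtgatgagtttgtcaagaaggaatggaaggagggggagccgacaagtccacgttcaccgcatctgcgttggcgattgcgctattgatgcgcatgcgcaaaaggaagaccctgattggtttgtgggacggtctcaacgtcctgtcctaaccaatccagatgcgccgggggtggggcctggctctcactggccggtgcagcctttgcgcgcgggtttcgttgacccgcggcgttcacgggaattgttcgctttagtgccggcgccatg

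The promoter of MCM3, a subunit of the replicative helicase, held 2 matches, whose first bases lie at −174 and −4 from the start, and that of XRCC2 held 1 at 21. The other 4 windows held no match, and for UNG, with 2 promoter entries, 1 is shown. A match was present in 2.74% of all 35116 promoters listed there, and in 3.47% of the 20098 promoters of the 14228 tested genes with an entry. The replication list was drawn up to hold E2F genes, and its share was 35.2% of 91 promoters, of 66 genes. Within it the share was 51.5% of 33 promoters, of 28 genes, in the class that fell in both. In the class that moved oppositely it was 33.3% of 24 promoters, of 15 genes. Taking all genes of a class, it was 9.15% of promoters for those that fell in both, 8.51% for those that fell after FLI1 shRNA and rose with the drug, 1.80% for those that rose in both and 2.36% for those that rose after FLI1 shRNA and fell with the drug. Both classes that fell after FLI1 shRNA thus held the motif more often than the table, whichever way the drug moved them. The AP-1 motif TGANTCA was found in 4.69% and 4.77% of promoters of the 2 classes that fell after FLI1 shRNA and in 7.10% and 7.78% of those that rose, beside 6.10% over tested genes. The ETS motif CCGGAAGT was found in 4.56% to 6.03% of promoters by class, beside 5.44% over tested genes. For GGAAGGAA, which shares its GGAA with the ETS motif, the range was 2.28% to 4.00%, beside 3.71%. The CRE motif TGACGTCA was found in 1.87% to 3.25%, beside 2.33%. A match is a run of letters and not a measured binding site.

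Genes of mitosis moved less after FLI1 shRNA and more with the drug. Of 54, 23 fell and the other 31 did not pass after FLI1 shRNA. With the drug 34 fell and 11 rose (43 and 6 with ribosomal protein centring). The medians were −0.22 and −0.37 (−0.21 and −0.49 relative to all genes). In 12 both treatments lowered the level and in 5 the directions were opposite. The kinetochore gene CENPI (difference 1.91), citron kinase CIT (1.65), CKAP5, which lengthens spindle microtubules (1.58), and the hyaluronan receptor HMMR (1.52) had the largest differences, with drug responses of −2.24 to −1.54.

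Replication-dependent histone genes, whose unpolyadenylated RNA is made in S phase, fell after FLI1 shRNA in 39 of 51 cases, while with the drug 15 rose and 12 fell (3 and 30 with ribosomal protein centring). The medians were −0.52 and −0.03, the difference −0.35 or, with ribosomal protein centring, 0.02, and −0.23 relative to all genes. The 5 linker histones fell in both treatments, with medians of −0.71 and −0.81. Of the 46 core histones, 34 fell after FLI1 shRNA, and with the drug 15 rose and 7 fell. H2AC17 had log2 signals of 6.35 and 6.60 with FLI1 shRNA against 7.51 and 7.05, and of 9.44 and 9.51 with the drug against 7.84 and 7.58, a difference of −2.57 (standard error 0.20, adjusted p = 2.7e-06). H3C3 (difference −2.13), H2AC12 (−1.71) and H2AC14 (−1.61) followed, the last with signals of 5.17 and 6.02 with FLI1 shRNA against 6.84 and 5.95, which overlap and did not pass. Core histone genes are near-identical copies of each other, so that probe sets may read more than one of them.

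Early-response genes rose with the drug more than after FLI1 shRNA. The list of immediate-early genes and feedback inhibitors of MAP kinase signalling had 37 of 43 genes rising and 3 falling with the drug (29 and 5 with ribosomal protein centring), and 18 rising and 5 falling after FLI1 shRNA. The medians were 0.96 and 0.15, and the median difference of −0.60 was −0.23 with ribosomal protein centring and −0.48 relative to all genes. In 17 genes both treatments raised the level. By role, all 6 regulators of mRNA decay rose with the drug and 5 rose after FLI1 shRNA (medians 1.25 and 0.51), as did 11 and 6 of 13 feedback inhibitors (0.82 and 0.24). Of the 9 AP-1 genes and partners 8 rose with the drug and 4 after FLI1 shRNA, and of the 15 EGR, KLF and NR4A genes 12 and 3. Besides NR4A2, the factors KLF4 (−0.05 and 1.72) and KLF5 (0.57 and 2.13) and BTG1, which slows growth (0.39 and 1.99), had the largest differences, from −1.77 to −1.56. The opposite direction was seen in FOS, NR4A3 and MYC, which fell after FLI1 shRNA by 0.40 to 0.64 and rose with the drug, MYC by an amount that ribosomal protein centring turns negative (named after their values were seen).

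NF-kB subunits, their feedback inhibitors and cytokines shared a rise in 12 of 35 genes. With the drug 28 rose and 2 fell (12 and 4 with ribosomal protein centring). After FLI1 shRNA 14 rose and the other 21 did not pass, and the medians were 0.49 with the drug and 0.29 after FLI1 shRNA. The median difference was −0.20, or 0.17 with ribosomal protein centring. The cyclooxygenase PTGS2 rose by 0.56 after FLI1 shRNA and 2.65 with the drug, but its lacZ shRNA arrays (8.53 and 8.51) already lay above DMSO (7.54 and 7.49, adjusted p = 0.00067). The pentraxin PTX3 rose further after FLI1 shRNA, with 2.52 and 0.81, also from a higher lacZ shRNA level (6.89 and 6.87, against 5.56 and 6.06 with DMSO, adjusted p = 0.0074). The subunit gene NFKB1 rose by 0.38 and fell by 1.23 (difference 1.61, adjusted p = 8.0e-06), and superoxide dismutase SOD2 had responses of −0.29 (adjusted p = 0.097) and 1.37.

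Genes of growth arrest, cell death and stress were led by PLK2, a polo-like kinase. Its log2 signals were 6.89 and 6.88 with FLI1 shRNA against 5.61 and 5.43, and 10.46 and 10.49 with the drug against 5.74 and 5.63. It rose in both treatments, but with the drug by 4.79 against 1.36, a difference of −3.42 (standard error 0.12, adjusted p = 5.9e-08). Of the 31 genes 22 rose and 3 fell with the drug (11 and 7 with ribosomal protein centring), and 12 rose and 4 fell after FLI1 shRNA, 8 of them rising in both. The medians were 0.12 and 0.39, the latter 0.03 with that centring, and the median difference was −0.39, or −0.02. All 11 genes of growth arrest rose with the drug (median 1.18) and 6 rose after FLI1 shRNA (0.32). GDF15, a secreted stress factor, went the other way, with 1.68 after FLI1 shRNA and −0.71 with the drug (difference 2.40, standard error 0.12, adjusted p = 1.7e-07). GADD45B (0.23 and 2.87) and the death-promoting PMAIP1 (−0.03 and 2.24) rose with the drug and did not pass after FLI1 shRNA.

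Among 24 BCL2 family and caspase genes 5 rose and 4 fell after FLI1 shRNA, and 12 rose and 7 fell with the drug (7 and 11 with ribosomal protein centring). The share that fell with the drug, 29.2%, was near that of all genes, and those that moved after FLI1 shRNA were 20.8% and 16.7%. Beside PMAIP1, BCL2L11, which encodes the death-promoting BIM, had responses of −0.33 and 2.16 (difference −2.48). The caspase activator APAF1 (0.27 and −1.04) and the survival gene BCL2 (−0.07 and −1.34) fell with the drug. The median difference of −0.11 was 0.26 with ribosomal protein centring.

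Genes of YAP and TEAD split by role. Of all 28, 10 rose and 13 fell with the drug (7 and 17 with ribosomal protein centring). Their drug median of −0.12 was −0.48 with that centring, and the values by role below are without it. Their 9 factors and regulators all had a higher value in the difference of responses, with a median of 0.16 after FLI1 shRNA and −0.38 with the drug, where 7 fell and the other 2 did not pass. TEAD1, a DNA-binding partner of YAP, had log2 signals of 10.38 and 10.29 with FLI1 shRNA against 10.03 and 10.02, and of 7.42 and 7.51 with the drug against 9.93 and 10.10. The drug arrays stood below the other 6, and the difference was 2.86 (standard error 0.14, adjusted p = 1.5e-07). Of the 19 targets 11 rose and 1 fell after FLI1 shRNA, and 10 rose and 6 fell with the drug, 5 rising in both. CCN1 and CCN2 were among these, whereas ANKRD1 rose by 2.39 after FLI1 shRNA and had a drug response of −0.05 (adjusted p = 0.71).

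Collagens, matrix and adhesion genes rose after FLI1 shRNA in 36 of 58 cases, with 1 falling, and were divided with the drug, where 17 rose and 17 fell (3 and 27 with ribosomal protein centring). The medians were 0.38 and 0.11, the latter −0.25 with that centring, and the median difference of 0.39 stood 0.51 above all genes. In 12 both treatments raised the level and in 13 FLI1 shRNA raised and the drug lowered it. FBN1, or fibrillin, had log2 signals of 9.75 and 9.74 with FLI1 shRNA against 8.21 and 8.17, and of 6.87 and 6.64 with the drug against 7.92 and 7.88. Its difference was 2.70 (standard error 0.13, adjusted p = 1.3e-07), and the integrin ITGA6 (1.41 and −1.01) and N-cadherin CDH2 (1.03 and −0.75) followed. Integrin and adhesion genes were opposite in 7 of 18 cases and collagens in 2 of 22. Collagen genes that rose in both, such as COL3A1 (1.78 and 0.41), rose less with the drug.

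Genes of neural development were divided between all classes but that of shared rises. Of 46, 23 fell and 8 rose after FLI1 shRNA, and 22 fell and 13 rose with the drug (28 and 6 with ribosomal protein centring). In 11 the fall was shared, in 7 FLI1 shRNA raised and the drug lowered the level, and in 9 the reverse was found. Of the 16 transcription factors 11 fell after FLI1 shRNA (median −0.67), and with the drug 7 rose and 3 fell (0.18, negative with ribosomal protein centring). Of the 30 receptors and axon guidance genes 12 fell and 7 rose after FLI1 shRNA (median −0.13), and 19 fell and 6 rose with the drug (−0.75). The adhesion protein NRCAM (0.62 and −2.02, difference 2.63) and the Slit receptor ROBO2 (0.79 and −1.77, difference 2.57) joined SEMA3A on one side. The neurotrophin receptor NGFR, with responses of −1.61 and 0.76 and a difference of −2.37 (standard error 0.12, adjusted p = 1.7e-07), stood on the other.

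Small nucleolar RNAs, which guide chemical modification of ribosomal RNA and are mostly cut from introns of host genes, had some of the lowest median differences of the lists. Of 115 box C/D RNAs 33 fell and 2 rose after FLI1 shRNA, and 74 rose and 4 fell with the drug (43 and 16 with ribosomal protein centring). In 30 FLI1 shRNA lowered and the drug raised the level. The medians were −0.22 and 0.56, and the median difference of −0.82 was −0.44 with ribosomal protein centring and −0.69 relative to all genes. Of 77 box H/ACA and Cajal body RNAs 11 fell after FLI1 shRNA and 53 rose with the drug, the rest not passing, with medians of −0.23 and 0.57 and 6 RNAs in opposite directions. With ribosomal protein centring 24 rose and 5 fell with the drug. SNORA21 (difference −2.24), SNORA14A (−1.92), SCARNA9L (−1.88) and SCARNA9 (−1.74) had the largest values, and none of the 4 passed after FLI1 shRNA. SNORD45C (−0.48 and 2.51) and SNORD77 (−0.91 and 1.63) were the largest of the box C/D RNAs beside SNORD75 and SNORD79.

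These RNAs are not independent measurements, since several lie in one host transcript. Of the 7 measured box C/D RNAs of GAS5, a noncoding host gene, all 7 rose with the drug and 6 fell after FLI1 shRNA, with medians of 1.49 and −1.01. In those named by rule the lacZ shRNA mean lay above DMSO, by 0.34 (SNORD77) to 0.81 (SNORD79). Of these SNORD79 alone passed (adjusted p = 0.019). For SNORD44 the FLI1 shRNA arrays (8.74 and 9.06) overlapped DMSO (9.54 and 8.97), so the falls are relative to lacZ shRNA. Both measured RNAs of SNHG1, SNORD28 and SNORD30, fell after FLI1 shRNA and rose with the drug. These 2 hosts thus gave 8 of the 30 box C/D RNAs in opposite directions. The hosts themselves are not analysed here. Among 4 other measured host genes 2 fell after FLI1 shRNA and 3 rose with the drug, EPB41L4A-AS1 by 1.21, ZFAS1 by 0.74 and TAF1D by 0.60, and TAF1D fell after FLI1 shRNA by 0.28.

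Genes of ribosome production divided by list. RNA polymerase I and ribosome biogenesis genes fell after FLI1 shRNA in 15 of 42 cases, the other 27 not passing, and with the drug 24 rose and 8 fell (14 and 17 with ribosomal protein centring). The median difference was −0.56, or −0.19 with that centring, and −0.44 relative to all genes. Polymerase I subunits POLR1C (−0.12 and 1.62, difference −1.74) and POLR1G (−0.11 and 1.26, difference −1.37) and the processing factor RRP9 (−0.36 and 0.86) were lower in the difference, and UTP20, of the same processing complex and 107 kb long, was higher (−0.43 and −1.64, difference 1.22). Of 58 cytoplasmic ribosomal protein genes 1 fell, RPL26 by 0.31, and 57 did not pass after FLI1 shRNA, whereas 41 rose and 17 did not pass with the drug (8 rose and 15 fell with ribosomal protein centring). Their medians were 0.00 and 0.29, the latter 0.17 above all genes and −0.07 with ribosomal protein centring, and RPL32 (difference −1.34) and RPL27A (−1.05) differed most. They serve as the reference of the centring, under which their difference has a median of 0.06.

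Chromatin regulators had the highest median difference of the lists. Of 56, 48 fell and 4 rose with the drug (51 and 1 with ribosomal protein centring), whereas 10 rose and 4 fell after FLI1 shRNA. The medians were −0.97 and 0.06, and the median difference of 1.00 stood 1.13 above all genes. KMT2C, a histone H3 methyltransferase, had log2 signals of 10.18 and 10.17 with FLI1 shRNA, 10.26 and 10.17 with lacZ shRNA, 7.60 and 7.59 with 5nM actinomycin D, and 10.14 and 10.03 with DMSO. The drug arrays alone were low, and the difference was 2.45 (standard error 0.10, adjusted p = 9.1e-08). The acetyltransferases CREBBP (0.30 and −2.12) and KAT6B (0.34 and −1.94), which rose after FLI1 shRNA, and the remodeller CHD6 (0.15 and −1.95) followed. Remodellers (19 of 21) and histone modifiers (29 of 35) fell with the drug in similar shares. The median span of the list was 110 kb, against 27.3 kb over all protein-coding genes.

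Of 494 ZNF zinc-finger genes 218 rose and 82 fell with the drug (88 and 174 with ribosomal protein centring), and 34 rose and 17 fell after FLI1 shRNA. ZNF609 (0.38 and −3.15, difference 3.53), ZNF618 (difference 2.25), ZNF296 (−2.02) and ZNF850 (−1.84) were the extremes. Of 86 oxidative phosphorylation genes 49 rose and 10 fell with the drug (10 and 31 with ribosomal protein centring), 3 rose and 1 fell after FLI1 shRNA, and UQCRB (difference −1.33), NDUFAF7 (−0.97), NDUFA1 (−0.93) and COX7B (−0.85) differed most. Of 28 proteasome genes 9 fell and 6 rose with the drug, or 32.1% and 21.4% (21 and 1 with ribosomal protein centring), and 1 fell after FLI1 shRNA, with PSMD14 (1.04), PSMD1 (0.90), PSMD11 (0.77) and PSMB7 (0.49) higher in the difference. None of these 8 oxidative phosphorylation and proteasome genes passed after FLI1 shRNA.

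Of 33 genes of unfolded protein and amino-acid stress 12 rose and 1 fell after FLI1 shRNA and 14 rose and 8 fell with the drug (medians 0.16 and 0.13). With ribosomal protein centring 5 rose and 17 fell with the drug (median −0.23). The chaperones DNAJB9 (0.06 and 1.57) and DNAJC3 (0.58 and −0.87) stood at opposite ends, with the sensor ATF6 (difference 1.22) and the lipoprotein receptor VLDLR (1.06). Of 22 genes of cholesterol and fatty acid synthesis 11 rose after FLI1 shRNA and 11 rose and 7 fell with the drug, 7 rising in both (medians 0.21 and 0.11). With ribosomal protein centring 1 rose and 12 fell with the drug (median −0.25). The elongase ELOVL6 (−0.02 and −2.26, difference 2.24), MVK (1.21) and LSS (1.18), which act in cholesterol synthesis, and the carboxylase ACACA (0.90) were higher in the difference. Of 28 interferon-stimulated genes 15 rose after FLI1 shRNA and 14 rose and 2 fell with the drug, 10 rising in both, with medians of 0.35 and 0.31 (6 rising, 8 falling and −0.05 with the drug under ribosomal protein centring). IFI44L (0.78 and −0.53), the RNA sensors RIGI (0.06 and −1.08) and IFIH1 (0.68 and −0.10) and IFITM1 (0.40 and 1.19), which blocks virus entry, had the largest differences.

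Of the 6 measured Ewing sarcoma markers 5 fell after FLI1 shRNA and 1, EWSR1, with the drug, with medians of −0.80 and −0.08. The 5 include FLI1, whose fall was set by the shRNA aimed at it, and its fusion partner EWSR1, so the count is not one of independent markers. With ribosomal protein centring all 6 fell with the drug (median −0.44), so that drug count depends on the scaling. Beside FLI1 and NKX2-2, the surface protein STEAP1 had responses of −1.0 and −0.08 (difference −0.92, adjusted p = 9.1e-05) and the blood group gene XG of −0.61 and −0.11. The difference of XG, −0.50, was lost with ribosomal protein centring and on leaving out any of 5 single arrays. Of the markers of other cells, 6 epithelial genes passed in neither treatment, 3 of 7 blood and 3 of 6 endothelial genes rose with the drug, and 1 of each list rose after FLI1 shRNA, where PECAM1 fell. Those that rose were at levels of 4.69 to 7.81 on the 8 arrays, apart from the lysosomal protein CD68 at 8.99 to 9.84, whose difference of −0.34 is 0.0326 with ribosomal protein centring. Their part in the results was not tested. KDR, a receptor of vascular growth factor, rose by 1.85 after FLI1 shRNA and 0.45 with the drug.

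Gene span ran through these results. For the 16894 protein-coding genes with a span, Spearman's rho with span was 0.131 for the FLI1 shRNA response, −0.522 for the drug response and 0.513 for the difference of responses, as a description over genes. The median FLI1 shRNA response stayed between −0.04 and 0.06 in 5 bins of span. The median drug response was 0.26 for genes under 10 kb, 0.21 from 10 to 30 kb, −0.03 from 30 to 100 kb, −0.53 from 100 to 300 kb and −0.33 over 300 kb. The median difference therefore went from −0.32 in the shortest bin to 0.65 between 100 and 300 kb and 0.43 above. Of the 624 genes lower in the difference by more than 2-fold, 251 spanned under 10 kb and 5 spanned 100 to 300 kb, whereas of the 1795 higher ones 30 and 892 did.

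The classes followed the same order. Genes that rose after FLI1 shRNA and fell with the drug had a median span of 110 kb, and 53.3% spanned over 100 kb, beside 18.2% of all. Those that fell in both had a median of 72.8 kb (37.9% over 100 kb), and those that rose in both and those that fell after FLI1 shRNA and rose with the drug had medians of 15.3 and 14.1 kb (3.03% and 1.16%). With FLI1 shRNA the share of genes that rose went from 9.57% under 10 kb to 23.1% between 100 and 300 kb, while the share that fell lay between 8.03% and 10.4% in each bin. What part span has in the lists and genes described here was not tested.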

How the data were processed

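RNA of A673 cells was hybridised to 12 Affymetrix Gene ST arrays, 2 for each of 6 groups taken from the labels. The deposited log2 values were made by the authors with RMA from the affy package (version not given in the sources used here), which subtracts background, equalises the distributions of the arrays and summarises probes. Of 32321 probe sets 19158 had a single gene symbol, 1388 several and 11775 none. They gave 18404 genes, of which 637 had several probe sets, and 18376 matched a RefSeq gene ID. Every column belonged to a sample. Arrays carry no read depth, and their number limits the precision.

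All 12 arrays entered one limma fit (version 3.58.1, R 4.3.3; 6 residual and 4.45 prior degrees of freedom), and both responses and their difference were taken as contrasts with Benjamini-Hochberg adjustment. In a simulation with independent normal noise, 18204 of 18404 genes were left unchanged, and 9 of them were called. The difference was recovered for 25.4% of genes changed by 0.5, 82.1% by 1 and 100% by 2 log2 units. In the data 4203 and 4366 genes passed, so the adjusted p cut-off is not alike and these rates do not carry over.

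Members and lists were chosen with earlier results of these data known. Named genes are FLI1 and EWSR1, the 8 genes of each class with the largest smaller response, the 6 largest differences each way among genes with a response under 0.3, and the 4 members of each list that differed most. Others are given as chosen after their values were seen. A short list of genes named by the study held 2 measured genes, FLI1, the target of the shRNA, and EWSR1. Both fell after FLI1 shRNA and 1, EWSR1, fell with the drug. Promoters and spans came from RefSeq (GRCh38.p14). The alternatives were other scalings and filters, 8 arrays only, a replicate block and leaving out each array. The block with crossed numbers was chosen after seeing the data.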

Additional observations from a re-analysis of the deposited data

How the results depend on the processing

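Differences past the thresholds for large changes numbered 1795 higher and 624 lower, and genes past the test in both treatments 684 (fell in both), 969 (rose in both), 948 (rose after FLI1 shRNA, fell with the drug) and 495 (the reverse). With ribosomal protein centring these were 2955 and 243, and 1038, 462, 1632 and 194, since the centring lowers each drug response by the same amount. Leaving out 1 array gave 1671 to 1933 and 581 to 708, and 439 to 715, 587 to 1026, 515 to 1059 and 266 to 507. The low ends of the 4 class counts came from the shRNA arrays: the genes that fell in both were 439 without FLI1 shRNA replicate 1 and 444 without lacZ shRNA replicate 1, those that rose in both 587 and 598 without FLI1 shRNA replicates 1 and 2 and 592 without lacZ shRNA replicate 2, those that rose after FLI1 shRNA and fell with the drug 539, 566 and 515 without the same arrays, and the reverse class 266 and 320 without FLI1 shRNA replicates 1 and 2 and 328 and 325 without the lacZ shRNA replicates. The remaining alternatives kept each count within a factor of 1.5. Of 3106 values of 195 single-gene results under alternatives, 3052 kept direction and side of the threshold, 53 no longer passed and 1 reversed (CD68, 0.0326 with ribosomal protein centring, adjusted p = 0.83).

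The replicate numbers were not taken to pair the arrays, since the labels give them no meaning and their signs were mixed: deviations from group means correlated at −0.168 between FLI1 shRNA and lacZ shRNA and 0.174 between DMSO and 5nM, and across the pairs at 0.271 (DMSO and lacZ shRNA), 0.335 (5nM and lacZ shRNA), −0.131 (DMSO and FLI1 shRNA) and −0.161 (5nM and FLI1 shRNA). With the replicate block the counts were 1794 and 619, and 662, 920, 896 and 460, and CDH1 and CDH5 no longer passed, and it changed no other call. With the FLI1 shRNA numbers crossed they were 1794 and 625, and 677, 955, 933 and 489.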

Other observations

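The arrays with 50nM actinomycin D, which share the DMSO arrays with 5nM and so repeat part of the same contrast, were not used to form the classes. The median response at 50nM over all genes was 0.10. It was −0.37 in the 684 genes that fell in both treatments and 0.19 in the 969 that rose in both. In the 948 genes that rose after FLI1 shRNA and fell at 5nM it was −0.24, and in the reverse class −0.02. FLI1 itself, with a response of −0.08 at 5nM, had one of −0.95 at 50nM.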
